A study of Mus musculus with 9 samples.

Results

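The NADPH oxidases and dual oxidases are membrane enzymes that pass electrons from NADPH to oxygen and so make superoxide or hydrogen peroxide. The genes described are 9 of the 56719 listed for each library of mouse liver: Duox1 and Duox2, their maturation factors Duoxa1 and Duoxa2, the isoform Nox4, and the phagocyte oxidase subunits Cybb, Cyba, Ncf1 and Ncf4. They were chosen by symbol with the results of these same comparisons already known, so their levels and fold changes are a description and carry no p-value. Of the 9, 7 passed the filter on low counts, and Duox1 and Duoxa1 did not.

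The libraries came from 3 groups of 3 C57BL/6J livers. FMT-Con A mice received, by gavage over 4 weeks, faeces of mice with hepatitis induced by concanavalin A (the AIH model of the labels), and on the day of collection concanavalin A at 10 mg/kg into the tail vein. Con A mice received PBS over the 4 weeks and the same concanavalin A injection, and WT mice received PBS in place of both. Concanavalin A is a jack bean lectin; injected into mice it stimulates T cells and causes immune-mediated liver injury. Groups given faeces of healthy donors, or faeces without the injection, were not analysed here, so the FMT-Con A group differs from Con A in the gavage of diseased faeces as a whole.

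Total counts per library were 21580482 to 29466806 in FMT-Con A, 21772376 to 25890947 in Con A and 20513051 to 22770276 in WT. The labels do not say in so many words that each library is a separate animal, so the spread between libraries may in part be technical. The labels give the sex as female in one field and male in another, and the Y-linked gene Ddx3y was counted in all 9 libraries, at 99.9 to 259 CPM (counts in 1e6 counts of the scaled library). Liver identity was checked with 8 hepatocyte markers, all counted, whose summed level was 30000 to 35100 CPM in FMT-Con A, 49200 to 59300 CPM in Con A and 56000 to 66200 CPM in WT. FMT-Con A replicates 1 and 3 stood apart: 12 skeletal muscle markers summed to 14000 and 13700 CPM there, against 1430 CPM in FMT-Con A replicate 2, 2.83, 6.74 and 1530 CPM in the Con A libraries and 3.04 to 8.24 CPM in WT. Those 2 libraries were also the most alike of any pair within a group. Over genes with at least 20 counts in a pair, the median chi-square of their counts was 2.56 times that of sampling noise alone, against 10.1 and 10.2 times for their pairs with replicate 2, 7.57 to 12.7 times within Con A and 3.22 to 4.95 times within WT. They differed by more than sampling noise and were counted as 2 samples, but whether they are independent livers is not given in the labels, and if they are not, the FMT-Con A spreads given are too small. Values of FMT-Con A are therefore also given without those 2 libraries where they move. Mitochondrial transcripts took 7.44% to 11.7% of counts in FMT-Con A, 5.03% to 9.96% in Con A and 19.6% to 22.4% in WT.

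In phagocytes the catalytic subunit gp91phox, encoded by Cybb, sits in the membrane with p22phox, encoded by Cyba, and becomes active when cytosolic subunits, among them p47phox (Ncf1) and p40phox (Ncf4), and a Rac GTPase join it. Nox4 also pairs with p22phox but needs no cytosolic subunit, and releases mainly hydrogen peroxide. The dual oxidases carry an extra peroxidase-like domain, are switched on by calcium, and leave the endoplasmic reticulum only with their maturation factors; they are best known from thyroid and from airway and gut epithelium. In liver, Cybb is known from Kupffer cells and infiltrating phagocytes, and Nox4 from hepatocytes and stellate cells.

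The 4 dual oxidase genes form one block of 68.7 kb on mouse chromosome 2 (GRCm38 chr2:122279247-122347972). Duox2 (ENSMUSG00000068452, chr2:122279247-122298449, minus strand) and Duoxa2 (ENSMUSG00000027225, chr2:122298900-122302885, plus strand) lie head to head, with 450 bases between their gene models. Duoxa1 (ENSMUSG00000027224, chr2:122302191-122313730, minus strand) and Duox1 (ENSMUSG00000033268, chr2:122315672-122347972, plus strand) lie head to head beside them. The remaining genes are spread out: Nox4 (ENSMUSG00000030562) at chr7:87246096-87398710 on the plus strand, Cybb (ENSMUSG00000015340) at chrX:9435252-9487771 on the minus strand, Cyba (ENSMUSG00000006519) at chr8:122424776-122432930 on the minus strand, Ncf1 (ENSMUSG00000015950) at chr5:134220053-134229625 on the minus strand and Ncf4 (ENSMUSG00000071715) at chr15:78244801-78262580 on the plus strand.

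Of the 9 genes, 8 had a promoter window in the RefSeq table for GRCm38.p6. The 250 bases before 3 RefSeq starts are shown: that of Duoxa2, because it lies wholly between the head-to-head Duox2 and Duoxa2, whose levels followed the same order of groups, and those of Cybb and Ncf1, the phagocyte genes whose windows held interferon-type motifs. Capitals mark motif matches. The Duoxa2 window is chr2:122298650-122298899 on the plus strand, the Cybb window chrX:9469325-9469574 on the minus strand and the Ncf1 window chr5:134229626-134229875 on the minus strand, each written 5′ to 3′ in the direction of its gene.
Duoxa2: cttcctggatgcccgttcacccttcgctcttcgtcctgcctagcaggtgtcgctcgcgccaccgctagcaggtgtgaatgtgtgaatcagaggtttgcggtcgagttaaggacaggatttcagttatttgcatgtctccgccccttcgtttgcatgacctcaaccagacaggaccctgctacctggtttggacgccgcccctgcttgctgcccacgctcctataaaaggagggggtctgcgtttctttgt
Cybb: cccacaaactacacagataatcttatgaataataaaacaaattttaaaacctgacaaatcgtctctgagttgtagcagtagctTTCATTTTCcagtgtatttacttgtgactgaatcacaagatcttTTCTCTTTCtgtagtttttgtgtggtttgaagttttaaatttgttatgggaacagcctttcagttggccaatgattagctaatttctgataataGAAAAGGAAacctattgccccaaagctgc
Ncf1: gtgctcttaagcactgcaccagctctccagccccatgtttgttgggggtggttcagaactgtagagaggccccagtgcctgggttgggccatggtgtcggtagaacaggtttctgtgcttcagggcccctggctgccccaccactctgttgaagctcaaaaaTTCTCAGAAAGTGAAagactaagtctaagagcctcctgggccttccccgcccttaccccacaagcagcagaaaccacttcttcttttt

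The motifs searched, on both strands of the 300 bases from 250 before to 50 after each start, were GAS (TTCNNNGAA, bound by STAT factors), the ISRE core (GAAANNGAA, bound by interferon regulatory factors), a CEBP core (TTNNGCAA), a PU.1 core (GAGGAAG) and the NF-kappaB consensus. The Cybb window held 3 ISRE cores, beginning 167, 123 and 29 bases before the start. The Ncf1 window held a GAS match beginning 88 bases before the start, whose last 3 bases are also the first 3 of an ISRE core beginning 82 bases before it. Nox4 held 1 GAS match, 222 bases before its start. The windows of Duox1, Duox2, Duoxa1, Duoxa2 and Cyba held none of these motifs. For Duox2, 222 of the 250 bases before the RefSeq start lie in annotated exons, so that window is largely transcribed sequence. Over all 32851 windows of this length, 8.3% held a GAS match, 8.56% an ISRE core, 10.8% the CEBP core, 13.6% the PU.1 core and 5.8% the NF-kappaB consensus. A match is a string of letters and no evidence of binding.

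Duox2, the catalytic subunit of dual oxidase 2, had the widest range of the 9. It had 2.15, 1.19 and 2.14 CPM in the FMT-Con A livers, 14.6, 9.02 and 58.8 CPM in the Con A livers, and 0.0458, 0 and 0 CPM in the WT livers. All FMT-Con A libraries lay below all Con A libraries and above all WT libraries, and Con A replicate 3 was the highest of the 9. In reads this was 68, 25 and 56 in FMT-Con A, 279, 186 and 1418 in Con A, and a single read over the 3 WT livers. The level in WT was thus at the floor, since 3 counts are worth 0.125 to 0.14 CPM there. The ratio of summed counts per effective library size was 1980 for Con A over WT, with a 95% exact interval of 355 to 78300, and 127 (22.4 to 5040) for FMT-Con A over WT. These intervals cover counting error only, not the spread between livers.

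Against Con A, Duox2 in FMT-Con A was lower by a log2 fold change of -3.90 (SE 0.663), a ratio of counts of 0.0640 (95% exact interval 0.0538 to 0.0756). Con A replicate 3 carried much of that size. Without it the Con A over WT ratio was 786 (140 to 31100), and the FMT-Con A over Con A ratio was 0.161 (0.133 to 0.194), a log2 fold change of -2.68. The 2 remaining Con A livers still lay above all FMT-Con A livers. With FMT-Con A replicate 2 alone the log2 fold change was -4.54.

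Duoxa2, the maturation factor that carries Duox2 to the cell surface, showed the same order at a lower level. It had 0.347, 0.427 and 0.267 CPM in FMT-Con A, 2.83, 1.02 and 8.37 CPM in Con A, and 0, 0 and 0.0418 CPM in WT. The 3 groups did not overlap, and the same Con A liver was highest for both genes. The ratio of counts was 291 (51.9 to 11500) for Con A over WT, 23.0 (3.78 to 940) for FMT-Con A over WT and 0.0788 (0.0510 to 0.117) for FMT-Con A over Con A, where the log2 fold change was -3.55 (SE 0.721). Without Con A replicate 3 the last ratio was 0.181 (0.112 to 0.284) and the Con A over WT ratio 127 (22.1 to 5070).

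Set against each other per kilobase of exon, Duox2 and Duoxa2 were at similar levels in the injected livers. The ratio of Duox2 to Duoxa2 was 1.45, 0.653 and 1.88 in FMT-Con A and 1.21, 2.08 and 1.65 in Con A. The groups overlapped in this ratio, and WT gave too few reads for one. Duoxa2 shares 682 exonic bases with Duoxa1 on the opposite strand, which is 42.8% of the Duoxa2 exons and 17.1% of the Duoxa1 exons. Whether the authors' counting used strand is not given in the sources used here, so reads in that overlap cannot be assigned. Duox2 has no such overlap.

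Duox1 and its maturation factor Duoxa1, which make up the rest of the block, were barely counted. Duox1 had 7, 0 and 4 reads in FMT-Con A, 7, 3 and 13 in Con A, and 1 in each WT liver, which is 0.125 ± 0.113, 0.350 ± 0.197 and 0.0448 ± 0.00265 CPM (SD, n = 3 each) in FMT-Con A, Con A and WT. The Con A livers lay above the WT livers, with a ratio of counts of 8.06 (2.44 to 41.9), and FMT-Con A overlapped both. Duoxa1 had 4, 0 and 4 reads in FMT-Con A, 3, 0 and 4 in Con A, and 2, 0 and 0 in WT. All 3 groups overlapped, and the Con A over WT ratio of 3.68 had an interval of 0.701 to 36.3. At this depth no difference in Duoxa1 was detectable.

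**Figure D1:**
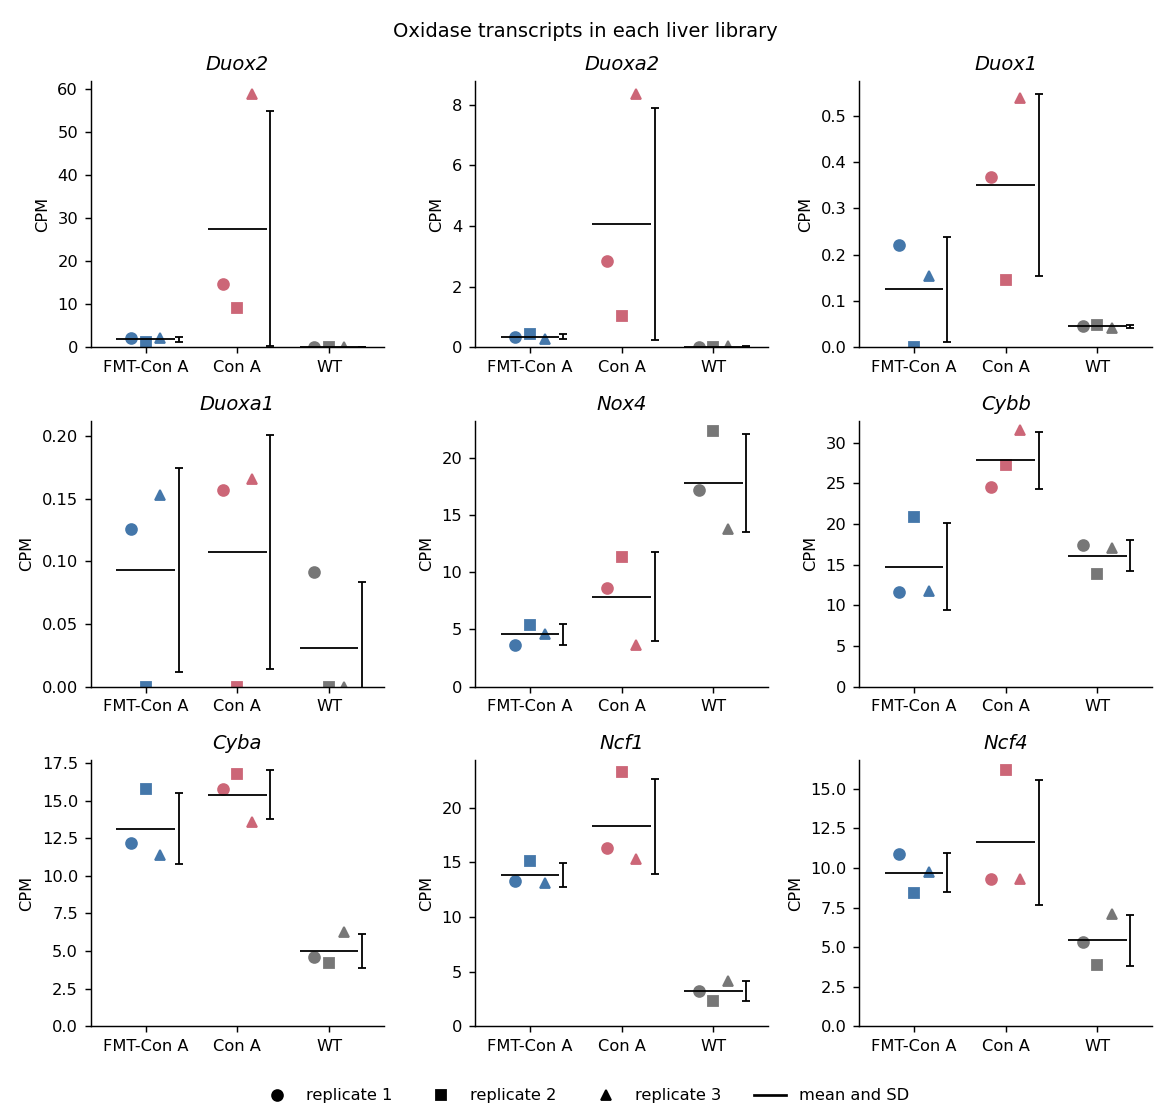
Level in CPM (y axis, linear, own scale in each panel) of each of the 9 oxidase genes in the FMT-Con A, Con A and WT livers; symbols are single libraries, lines are group means and bars are SDs (n = 3). Duox2 and Duoxa2 peak in Con A replicate 3 at 58.8 and 8.37 CPM, Nox4 is highest in WT, and Cyba, Ncf1 and Ncf4 are higher in FMT-Con A and Con A than in WT.

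The dual oxidases were set beside markers of epithelia that are known to carry them. The 5 airway markers summed to at most 0.543 CPM in any library. The 6 intestinal markers summed to 26.6 to 52.7 CPM in FMT-Con A, 35.5 to 72.8 CPM in Con A and 63.9 to 90.2 CPM in WT, and most of this was Fabp2. The intestinal factor Cdx1 was at 0 in every library. Its relative Cdx2 had 35 reads (1.7 CPM) in Con A replicate 2, 2 reads in FMT-Con A replicate 3 and none elsewhere. Without Fabp2 the sum was 1.2, 0.332 and 1.37 CPM in FMT-Con A, 1.36, 3.01 and 4.52 CPM in Con A, and 0.183, 0.234 and 0.209 CPM in WT. Muc2, a secreted mucin, made up most of that remainder in Con A replicates 1 and 3, rose in Con A over WT (log2 fold change 3.63, adjusted p = 0.00192) and, at 4.48 CPM, was highest in Con A replicate 3, as Duox2 was. The 7 cholangiocyte markers summed to 101, 245 and 105 CPM in FMT-Con A, 160, 122 and 284 CPM in Con A, and 52, 47.3 and 50.2 CPM in WT, with none at 0 in a whole group. Spp1, which other cells also make, led this sum. Without it the sum was 29.6, 56.0 and 34.3 CPM in FMT-Con A, 23.3, 13.7 and 22.6 CPM in Con A, and 31.0, 30.1 and 30.9 CPM in WT, so that all Con A livers lay below all others. The part of cell composition in the Duox2 values was not tested. In these bulk samples, more cells of a type and more RNA per cell cannot be told apart.

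Nox4 ran the other way. It had 3.63, 5.41 and 4.62 CPM in FMT-Con A, 8.59, 11.3 and 3.65 CPM in Con A, and 17.2, 22.3 and 13.8 CPM in WT. Every WT liver lay above every liver of the other groups, and FMT-Con A and Con A overlapped through Con A replicate 3. The log2 fold change was -1.19 (SE 0.356) for Con A over WT, -1.97 (SE 0.365) for FMT-Con A over WT and -0.78 (SE 0.363) for FMT-Con A over Con A. Without Con A replicate 3, the liver with the most Duox2 and the least Nox4 of its group, the Con A over WT value was -0.83 and the FMT-Con A over Con A value -1.13. Without Con A replicate 2 they were -1.55 and -0.40.

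Hepatocyte and stellate cell markers moved beside Nox4 in different ways. The hepatocyte sum given above was lower in FMT-Con A than in both other groups, while Con A and WT overlapped in it. Without Alb it was 10600, 17300 and 10300 CPM in FMT-Con A, 21200, 19600 and 14800 CPM in Con A, and 21500, 22700 and 21200 CPM in WT, so that FMT-Con A and Con A overlapped. Gene by gene the 8 hepatocyte markers split. In Con A over WT, 3 rose (Cps1, Hnf4a and Tat), 2 fell (Ttr and Apoa1) and 3 did not pass. Of all tested genes, 32.5% rose and 30.9% fell there. In FMT-Con A over WT, 2 rose (Hnf4a and Tat), 3 fell (Alb, Ttr and Apoa1) and 3 did not pass. The 9 stellate cell and fibroblast markers, none at 0, summed to 695, 231 and 666 CPM in FMT-Con A, 237, 183 and 352 CPM in Con A, and 282, 251 and 291 CPM in WT. Des, which muscle also makes, gave 448, 60.4 and 436 CPM of the FMT-Con A sums. Without it the sum was 247, 171 and 230 CPM in FMT-Con A, 236, 182 and 263 CPM in Con A, and 278, 247 and 287 CPM in WT. Of these 9 markers, 2 fell (Lrat and Col1a2) and 7 did not pass in Con A over WT, where 30.9% of all tested genes fell. In FMT-Con A over WT, 2 rose (Des and Acta2), only Lrat fell and 6 did not pass. The shares of all tested genes there were 31.2% higher and 27.9% lower. Lrat, the vitamin A-storing enzyme of stellate cells, fell in Con A over WT by 2.36 (adjusted p = 0.00026) and in FMT-Con A over WT by 3.24 (adjusted p = 6.24e-05). Their part in the Nox4 values was not tested.

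Cybb, the catalytic subunit of the phagocyte oxidase, was highest in Con A. It had 11.6, 20.9 and 11.7 CPM in FMT-Con A, 24.6, 27.3 and 31.6 CPM in Con A, and 17.4, 13.9 and 17.0 CPM in WT. Con A lay above both other groups, and FMT-Con A and WT overlapped. The log2 fold change was 0.79 (SE 0.226) for Con A over WT, -0.92 (SE 0.227) for FMT-Con A over Con A and -0.14 (SE 0.227) for FMT-Con A over WT. The last value had no steady sign: it was -0.47 without FMT-Con A replicate 2 and 0.37 without replicates 1 and 3. Without those 2 muscle-rich libraries the FMT-Con A over Con A value was -0.41.

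Cyba, the membrane partner of Cybb and of Nox4, was higher in both injected groups than in WT. It had 12.2, 15.8 and 11.4 CPM in FMT-Con A, 15.8, 16.8 and 13.6 CPM in Con A, and 4.58, 4.17 and 6.27 CPM in WT. Both injected groups lay above WT and overlapped each other. The log2 fold change was 1.61 (SE 0.198) for Con A over WT and 1.39 (SE 0.197) for FMT-Con A over WT. It was -0.23 (SE 0.189) for FMT-Con A over Con A, and 0.04 without FMT-Con A replicates 1 and 3. Per kilobase of exon, Cyba stood to Cybb at 5.93, 4.22 and 5.46 in FMT-Con A, 3.59, 3.44 and 2.40 in Con A, and 1.47, 1.68 and 2.06 in WT. The 3 groups did not overlap in this ratio.

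Ncf1 encodes p47phox, the organiser whose phosphorylation starts assembly of the enzyme. It had 13.3, 15.1 and 13.1 CPM in FMT-Con A, 16.3, 23.3 and 15.3 CPM in Con A, and 3.20, 2.34 and 4.14 CPM in WT. The 3 groups did not overlap, though the highest FMT-Con A liver and the lowest Con A liver nearly met. The log2 fold change was 2.50 (SE 0.236) for Con A over WT and 2.09 (SE 0.233) for FMT-Con A over WT. It was -0.41 (SE 0.217) for FMT-Con A over Con A, -0.18 without Con A replicate 2 and -0.52 without Con A replicate 3. Ncf1 shares 408 exonic bases, 11.1% of its exons, with Gtf2ird2 on the opposite strand.

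Ncf4 encodes p40phox, which binds a membrane lipid of the phagosome. It had 10.9, 8.45 and 9.77 CPM in FMT-Con A, 9.32, 16.2 and 9.33 CPM in Con A, and 5.31, 3.84 and 7.11 CPM in WT. Both injected groups lay above WT and overlapped each other. The log2 fold change was 1.09 (SE 0.278) for Con A over WT and 0.84 (SE 0.277) for FMT-Con A over WT. It was -0.25 (SE 0.271) for FMT-Con A over Con A. The last value was 0.08 without Con A replicate 2 and -0.45 without FMT-Con A replicates 1 and 3. Per kilobase, Ncf1 stood to Ncf4 at 0.669, 0.985 and 0.741 in FMT-Con A, 0.964, 0.797 and 0.904 in Con A, and 0.333, 0.336 and 0.321 in WT. Ncf1 was thus the lower of both cytosolic subunits in every liver, and closest to Ncf4 in the injected groups.

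Ordered by level per kilobase of exon, Cyba led in each group. In FMT-Con A it averaged 12.6 ± 2.22 CPM per kb, followed by Ncf4 at 4.81 ± 0.612, Ncf1 at 3.77 ± 0.301, Cybb at 2.53 ± 0.922, Nox4 at 0.537 ± 0.105, Duox2 at 0.269 ± 0.0814, Duoxa2 at 0.218 ± 0.0503, Duox1 at 0.0236 ± 0.0215 and Duoxa1 at 0.0234 ± 0.0205 (SD, n = 3 each). The bands of mean ± SD overlapped only between Duox2 and Duoxa2 and between Duox1 and Duoxa1. In Con A the order was Cyba at 14.8 ± 1.59, Ncf4 at 5.74 ± 1.95, Ncf1 at 5.0 ± 1.2, Cybb at 4.79 ± 0.614, Duox2 at 4.06 ± 4.03, Duoxa2 at 2.56 ± 2.41, Nox4 at 0.924 ± 0.456, Duox1 at 0.0665 ± 0.0374 and Duoxa1 at 0.0271 ± 0.0235. There the bands of all neighbours from Ncf4 down to Nox4 overlapped, as did those of Duox1 and Duoxa1. In WT the order was Cyba at 4.82 ± 1.07, Cybb at 2.78 ± 0.332, Ncf4 at 2.68 ± 0.81, Nox4 at 2.10 ± 0.504 and Ncf1 at 0.881 ± 0.245. Cybb, Ncf4 and Nox4 overlapped in WT, and the 4 dual oxidase genes were all under 0.01 CPM per kb.

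The order of the 3 catalytic subunits therefore differed by liver. Duox2 stood to Cybb, per kilobase, at 0.159, 0.0487 and 0.157 in FMT-Con A and at 0.51, 0.284 and 1.59 in Con A. Only in Con A replicate 3 did Duox2 exceed Cybb. Nox4 stood to Cybb at 0.215, 0.178 and 0.271 in FMT-Con A, 0.24, 0.283 and 0.0791 in Con A, and 0.677, 1.10 and 0.556 in WT. All WT livers had the higher ratio, and in WT replicate 2 Nox4 exceeded Cybb.

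**Figure D2:**
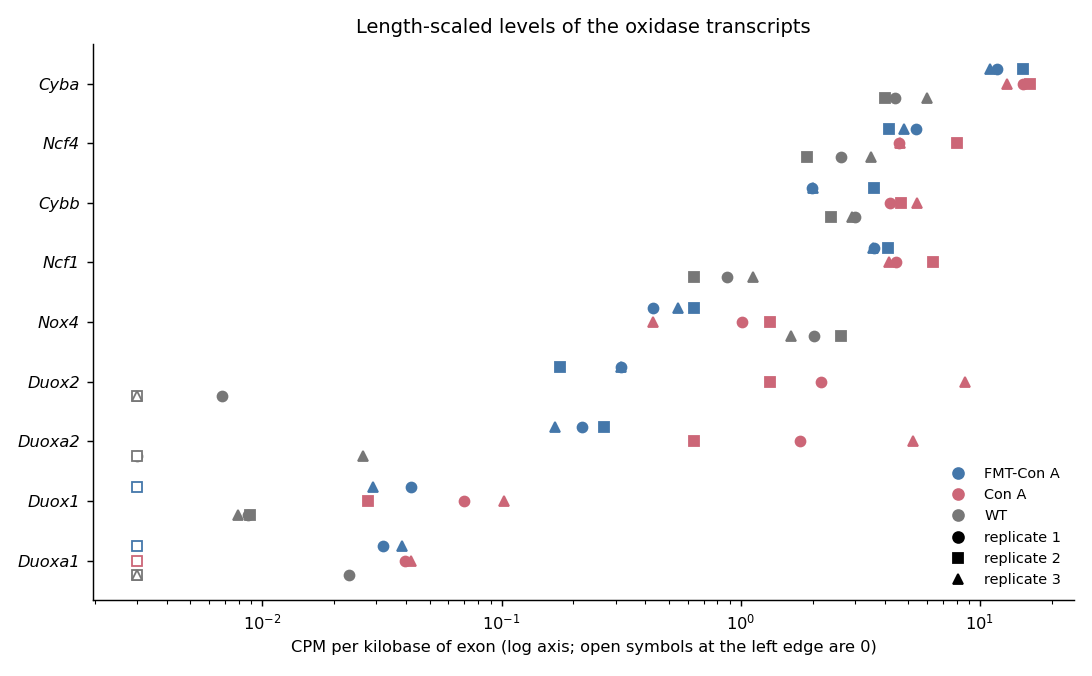
Level per kilobase of exon (x axis, log scale) of the 9 oxidase genes, one symbol a library, with FMT-Con A above Con A above WT within each gene and open symbols at the left edge for 0 counts. Cyba leads in each group, at 12.6, 14.8 and 4.82 CPM per kb in FMT-Con A, Con A and WT, and Duox2 lies below every phagocyte subunit in Con A replicates 1 and 2, exceeds Cybb in Con A replicate 3 and lies at the floor in WT.

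Beside these values stand the counts over all genes. Of 17704 genes tested with edgeR's quasi-likelihood test, 63.4% passed an adjusted p of 0.05 for Con A over WT, 32.5% higher and 30.9% lower, and 69.8% had libraries that did not overlap. Of the 7 oxidase genes tested, 6 were higher and Nox4 lower past that threshold, and of all 9, 7 were higher and Nox4 lower without overlap. For FMT-Con A over WT, 59% of tested genes passed, 31.2% higher and 27.9% lower, and 69.1% did not overlap. Here 5 of the 7 were higher and Nox4 lower, and of all 9, 5 were higher and Nox4 lower without overlap. For FMT-Con A over Con A, 16.8% passed, 6.26% higher and 10.6% lower, and 32.7% did not overlap. Duox2, Duoxa2 and Cybb were lower past the threshold, and these and Ncf1 lower without overlap. The genes were chosen on these comparisons, so nothing is read from their counts. The 3 comparisons share libraries in pairs and are not independent of each other.

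The phagocyte subunits were set beside markers of the cells that carry them. The 11 neutrophil markers, led by S100a8 and S100a9 and with none at 0 in any group, summed to 214, 337 and 208 CPM in FMT-Con A, 280, 483 and 309 CPM in Con A, and 13.8, 9.32 and 14.9 CPM in WT. The 10 monocyte and macrophage markers, none at 0, summed to 343 to 587 CPM in FMT-Con A, 344 to 872 CPM in Con A and 71 to 91 CPM in WT, nearly all of the difference being Cd14. Without Cd14 the sum was 68.0 to 79.8 CPM in FMT-Con A, 80.3 to 81.9 CPM in Con A and 69.2 to 88.8 CPM in WT. Of these 10 markers, 4 rose in Con A over WT, while Csf1r, Ccr2 and Cx3cr1 fell by 0.55, 0.53 and 4.61 (adjusted p = 0.0115, 0.022 and 1.1e-05). All 10 neutrophil markers tested rose in that comparison. The 8 Kupffer cell markers, none at 0, summed to 92.2, 185 and 92 CPM in FMT-Con A, 226, 198 and 208 CPM in Con A, and 222, 207 and 292 CPM in WT. Within that list, 2 rose (Marco and C1qc) and 2 fell (Clec4f and Vsig4) in Con A over WT. Ncf1 and Ncf4 were highest in Con A replicate 2, as was the neutrophil sum. Cybb was highest within FMT-Con A in replicate 2, as was the Kupffer sum, but Cybb was higher in Con A than in WT where the Kupffer sums overlapped. The 5 B cell markers summed to 2.36 to 4.72 CPM over all libraries. The part of these cells in the oxidase values was not tested.

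**Figure D3:**
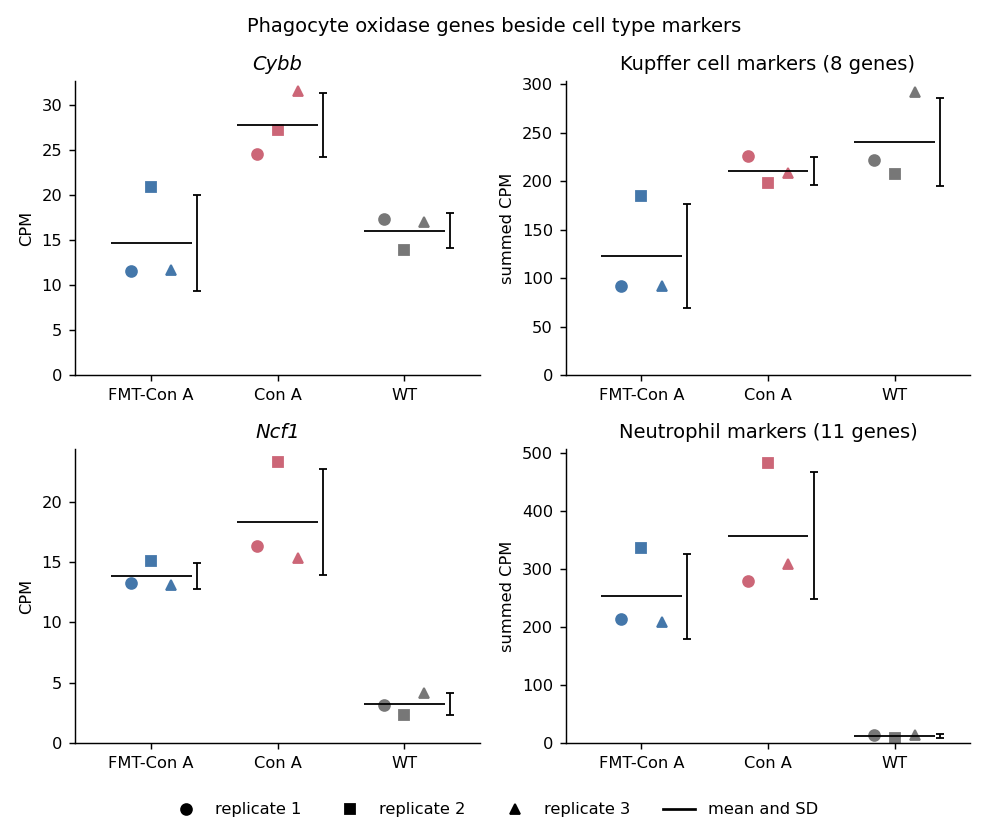
Levels of Cybb and Ncf1 (left, CPM) beside the summed levels of 8 Kupffer cell and 11 neutrophil markers (right, CPM) in the FMT-Con A, Con A and WT livers, one symbol a library, with group means and SDs (n = 3). Neutrophil markers sum to at least 208 CPM in every FMT-Con A and Con A liver and to at most 14.9 CPM in WT, and the Kupffer sum is lowest in FMT-Con A.

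Genes that work with these enzymes were counted from 6 lists of 72 genes that hold none of the 9, and these were tested. Of 60 above the filter, 30 rose and 10 fell in Con A over WT, against 32.5% and 30.9% of all tested genes. The median log2 fold change was 0.69 against 0.01 over all tested genes. In FMT-Con A over WT, 32 rose and 10 fell, against 31.2% and 27.9%, with a median of 0.52 against 0.03. In FMT-Con A over Con A, 2 rose and 8 fell, against 6.26% and 10.6%, with a median of -0.33 against -0.01, and DESeq2 called 19. Of those 10, only Ptgs2, Pgd and Ifng passed with each single library left out in turn. The count was 3 without FMT-Con A replicate 1 or replicate 3, 4 without Con A replicate 1, 5 without WT replicate 1 and 6 without WT replicate 2. With replicates 1 and 3 of FMT-Con A both left out, edgeR called 0 of 62 tested, 16 of them at an unadjusted p under 0.05. That fit had 1 FMT-Con A library, which was assumed to vary like the rest.

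Among partners and other isoforms, 5 of 10 tested rose and 1 fell in Con A over WT. For the counts of this and the later lists, the shares of all tested genes are those given above. Rac1 and Rac2 encode GTPases that complete the active enzyme. Rac1 averaged 80.1 ± 3.16 CPM in FMT-Con A, 101 ± 18.1 CPM in Con A and 29.1 ± 2.23 CPM in WT, a log2 fold change of 1.79 (SE 0.149, adjusted p = 6.04e-06) for Con A over WT. Rac2 rose by 1.38 (SE 0.227, adjusted p = 0.000478) and Cybc1, which helps the gp91phox and p22phox pair to mature, by 0.69 (SE 0.11, adjusted p = 0.000413). In FMT-Con A over WT, 4 rose and Noxa1 fell: Rac1 rose by 1.46 (adjusted p = 2.93e-05), Rac2 by 0.99 (adjusted p = 0.00391), Cybc1 by 0.65 (adjusted p = 0.00077) and Sh3pxd2b by 3.23 (adjusted p = 4.83e-05).

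The organiser-like scaffold genes Sh3pxd2a and Sh3pxd2b, which encode Tks5 and Tks4, rose in Con A over WT by 0.95 (SE 0.27, adjusted p = 0.0109) and 4.65 (SE 0.365, adjusted p = 4.38e-06). They were also the 2 partners that fell in FMT-Con A over Con A, by 0.99 (adjusted p = 0.0357) and 1.42 (adjusted p = 0.016) on the log2 scale. Both of those calls were lost without FMT-Con A replicate 1, FMT-Con A replicate 3 or Con A replicate 1, with adjusted p up to 0.139 for Sh3pxd2a and 0.0759 for Sh3pxd2b, and that of Sh3pxd2a also without 4 other libraries. Noxa1, the activator subunit used by Nox1, fell by 1.74 (SE 0.402, adjusted p = 0.00374) in Con A over WT and by 2.28 (adjusted p = 0.00108) in FMT-Con A over WT. Nox1 had 6 reads in FMT-Con A and 3 in each other group. Nox3 had none in any library, which allows up to 0.0947 to 0.157 CPM per library. Hvcn1, the proton channel that balances the oxidase's charge, was below the filter.

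**Figure D4:**
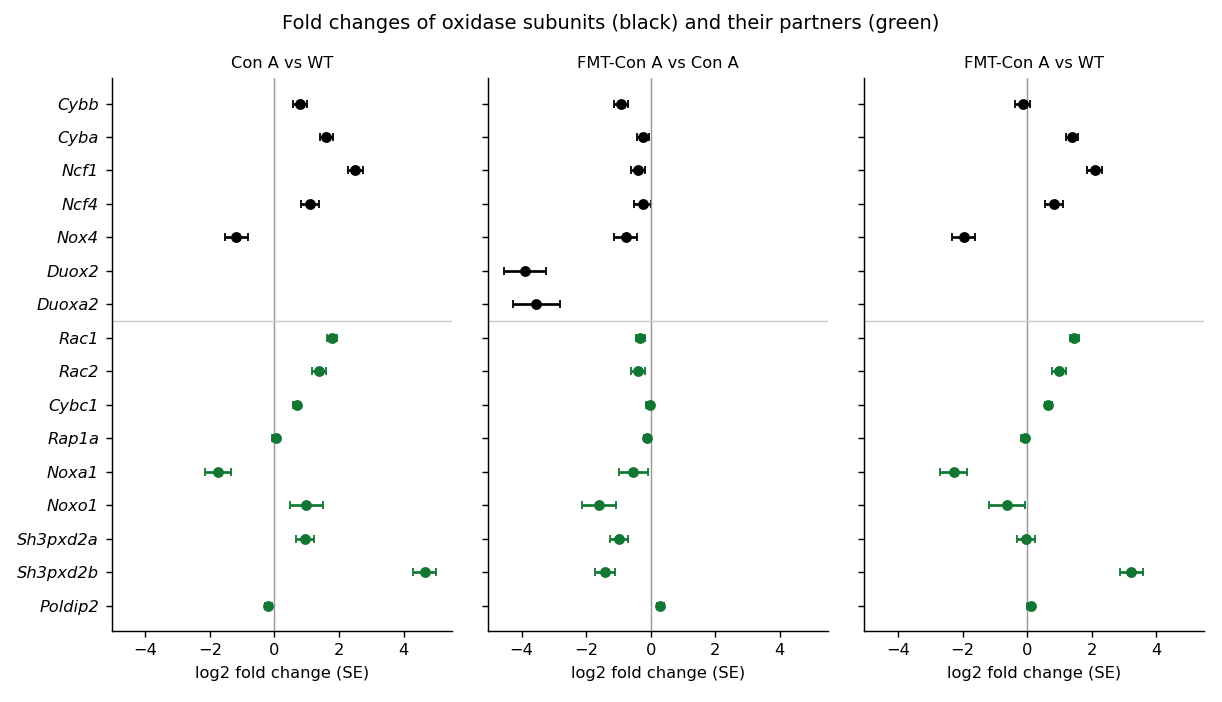
Log2 fold changes with SEs (x axis) of the oxidase subunits (black, described without a test) and of 9 partner genes (green, tested) in Con A over WT, FMT-Con A over Con A and FMT-Con A over WT; Duox2 and Duoxa2 are left out where WT holds 1 read. Ncf1 stands at 2.50 and Rac1 at 1.79 in Con A over WT, and Duox2 and Duoxa2 stand at -3.90 and -3.55 in FMT-Con A over Con A.

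Of 15 receptors and kinases that switch on the phagocyte oxidase, all tested, 10 rose in Con A over WT, and Prkcb, a protein kinase C gene, fell by 1.58 (adjusted p = 0.005). Itgam, the complement receptor chain CD11b, averaged 10.6 ± 1.11 CPM in FMT-Con A, 9.76 ± 2.02 CPM in Con A and 0.663 ± 0.279 CPM in WT, a log2 fold change of 3.86 (SE 0.302, adjusted p = 4.26e-06) for Con A over WT. The Fc receptor gene Fcgr3 rose by 2.17 (adjusted p = 6.99e-06) and the C5a receptor gene C5ar1 by 2.86 (adjusted p = 8.35e-06). For FMT-Con A over WT the count that rose was 11, those with the lowest p being Itgam at 3.98 (adjusted p = 5.4e-06), C5ar1 at 2.61 (adjusted p = 2.06e-05) and Itgb2 at 1.53 (adjusted p = 5.44e-05), while Prkcb and Fpr1 fell by 2.00 (adjusted p = 0.00173) and 1.20 (adjusted p = 0.0223). The Fpr1 call was lost without WT replicate 2 or 3 or FMT-Con A replicate 1 or 2 (adjusted p up to 0.0674). The formyl peptide receptor genes Fpr1 and Fpr2 and the Rac exchange factor Vav1 fell in FMT-Con A over Con A by 1.36, 0.87 and 0.79 (adjusted p = 0.0405, 0.0389 and 0.0297). Each of these 3 calls was lost without FMT-Con A replicate 1 or 3 and without 3 to 6 other libraries, with adjusted p up to 0.134.

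Haem peroxidases use hydrogen peroxide, or in cyclooxygenases lipid peroxides, as substrates. Ptgs2, the inducible cyclooxygenase, averaged 5.79 ± 0.637 CPM in FMT-Con A and 19.8 ± 5.67 CPM in Con A, and had 1 read in the 3 WT livers. The Con A over WT ratio of counts was 1340 (95% exact interval 239 to 52800), and Ptgs2 fell in FMT-Con A over Con A by 1.77 on the log2 scale (SE 0.262, adjusted p = 0.00431). Pxdn and Ptgs1 fell in Con A over WT by 1.57 and 1.37 (adjusted p = 0.00711 and 0.00029), and Ptgs1 fell in FMT-Con A over WT by 1.71 (adjusted p = 0.000102). Mpo, Lpo and Epx, the peroxidases of neutrophils, secretions and eosinophils, were below the filter.

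Of 15 tested genes that remove superoxide or peroxide, 5 rose in Con A over WT. Sod2, the mitochondrial superoxide dismutase, averaged 488 ± 21.6 CPM in FMT-Con A, 634 ± 51.8 CPM in Con A and 151 ± 13.8 CPM in WT, a log2 fold change of 2.07 (SE 0.142, adjusted p = 2e-06) for Con A over WT. Prdx1 rose by 1.33 (adjusted p = 0.000222), Gpx1 by 1.31 (adjusted p = 0.00149), Txnrd1 by 1.23 (adjusted p = 0.000227) and Prdx3 by 0.46 (adjusted p = 0.00424). The cytosolic Sod1 fell by 1.02 (adjusted p = 0.000548). Cat, encoding catalase, fell by 0.81 (adjusted p = 0.0342) in Con A over WT, a call lost without any 1 WT library or Con A replicate 2 or 3 (adjusted p up to 0.102), and by 1.69 (adjusted p = 0.000987) in FMT-Con A over WT. Prdx6 fell by 0.62 (adjusted p = 0.0195) in FMT-Con A over WT, a call lost without WT replicate 3 or FMT-Con A replicate 1 or 3 (adjusted p up to 0.0846). In FMT-Con A over WT, 6 rose and Sod1, Cat and Prdx6 fell; Sod2 rose by 1.69 (adjusted p = 9.06e-06), Prdx1 by 1.14 (adjusted p = 0.000726) and Gpx3 by 2.99 (adjusted p = 0.00222), and Sod1 fell by 0.87 (adjusted p = 0.00182). Without both muscle-rich libraries the Gpx3, Sod1 and Prdx6 calls of that comparison were lost, at log2 fold changes of 1.37, -0.63 and -0.21. Gpx3 was the only one to rise in FMT-Con A over Con A, by 2.35 (SE 0.592, adjusted p = 0.0276). It had 65.7, 15.6 and 62.2 CPM in FMT-Con A and 5.29, 6.50 and 16.3 CPM in Con A, with the 2 high values in the muscle-rich libraries. The call was lost without FMT-Con A replicate 1 or 3 or Con A replicate 1 or 2 (adjusted p up to 0.104), and the log2 fold change was 0.73 without both muscle-rich libraries.

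Of 9 tested genes that supply NADPH, the electron donor, 3 rose and 3 fell in Con A over WT. Pgd and H6pd, dehydrogenases of the pentose phosphate route in cytosol and endoplasmic reticulum, rose by 1.42 (adjusted p = 1.5e-05) and 1.60 (adjusted p = 5.49e-05), and G6pdx rose by 0.91 (adjusted p = 0.00231). Tkt, Idh1 and Pgls fell by 0.83, 1.10 and 0.43 (adjusted p = 0.000542, 0.0015 and 0.033), the last a call lost without WT replicate 3 or Con A replicate 1 or 3 (adjusted p up to 0.12). Pgd fell in FMT-Con A over Con A by 0.75 (SE 0.134, adjusted p = 0.00855), with 35.9 ± 2.93 CPM in FMT-Con A, 60.4 ± 8.7 CPM in Con A and 22.5 ± 2.33 CPM in WT. Idh2 rose in that comparison by 1.27 (adjusted p = 0.0328), with 189, 62.6 and 181 CPM in FMT-Con A and 58.4, 53.2 and 67.3 CPM in Con A. Its 2 high values were again in the muscle-rich libraries, without which the log2 fold change was 0.07; the call was also lost without any 1 Con A library and without WT replicate 1 or 2 (adjusted p up to 0.122). H6pd also rose in FMT-Con A over WT, by 1.29 (adjusted p = 0.000279), as did Idh2 by 1.78 (adjusted p = 0.00158), Pgd by 0.67 (adjusted p = 0.00202) and G6pdx by 0.52 (adjusted p = 0.0414), and Tkt and Idh1 fell by 0.83 and 1.04 (adjusted p = 0.000692 and 0.00251). The G6pdx call was lost without any 1 WT library or FMT-Con A replicate 1 or 3 (adjusted p up to 0.123), and both it and the Idh1 call without both muscle-rich libraries. Nnt (ENSMUSG00000116207) had no reads in any library. C57BL/6J mice are known to carry a deletion in this gene, and its part in the missing reads was not tested.

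Of 7 tested cytokine and sensor genes known to induce oxidase genes, 6 rose in Con A over WT and 6 in FMT-Con A over WT. Ifng, the cytokine that raises phagocyte oxidase genes in macrophages, averaged 3.59 ± 0.405 CPM in FMT-Con A, 15.2 ± 2.95 CPM in Con A and 0.168 ± 0.141 CPM in WT. It rose by 6.49 (SE 0.412, adjusted p = 1.33e-06) in Con A over WT and fell by 2.09 (SE 0.295, adjusted p = 0.00353) in FMT-Con A over Con A. In Con A over WT Tnf rose by 4.37 (adjusted p = 1.54e-05) and Nod2, a bacterial cell wall sensor, by 2.62 (adjusted p = 0.000155). The changes in FMT-Con A over WT were rises of 4.40 for Ifng (adjusted p = 1.98e-05), 3.34 for Tnf (adjusted p = 0.000107) and 1.78 for Nod2 (adjusted p = 0.00212), and the Nod2 call was lost, at 1.32, without both muscle-rich libraries. Il4 averaged 1.13 ± 0.456 CPM in FMT-Con A, 0.898 ± 0.149 CPM in Con A and 0.927 ± 0.19 CPM in WT, with an adjusted p of at least 0.507 in the 3 comparisons. Il22, Il17a, Il17c and Il13 were below the filter.

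For each oxidase gene above the filter, the 3 genes with the most similar pattern were found by the root mean square difference of log2 CPM, centred on the mean of the 9 libraries. For Duox2 they were Adm (adrenomedullin) at 0.81, Sele (E-selectin) at 0.87 and Hcar2 at 0.94, against a range of 9.42 for Duox2 itself. Adm averaged 26.0 CPM in FMT-Con A, 139 CPM in Con A and 0.727 CPM in WT. For Duoxa2 they were Gml2 at 0.43, Itpkc at 0.65 and Hilpda at 0.65. For Nox4 they were Mup20 at 0.16, Cyp1a2 at 0.20 and Gstp-ps at 0.27; Cyp1a2, a hepatocyte P450, averaged 261 CPM in FMT-Con A, 434 CPM in Con A and 913 CPM in WT. Cybb was nearest to Zfp953 at 0.15, Rab32 at 0.18 and C1qb at 0.19, the last a complement gene of resident macrophages with 23.1, 35.3 and 25.0 CPM on average in FMT-Con A, Con A and WT. Cyba was nearest to Xbp1 and Nudt18 at 0.14 and Ssu72 at 0.15, Ncf1 to Jund and Wfdc17 at 0.18 and Fmnl1 at 0.19, and Ncf4 to Ust at 0.15, Atg16l2 at 0.16 and Zfp566 at 0.20. Within the family the closest were Cyba and Ncf4 at 0.37 and Cyba and Ncf1 at 0.40. These distances describe the 9 libraries and carry no test.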

How the data were processed

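Poly(A) RNA of 9 mouse livers was sequenced as paired reads on an Illumina HiSeq 2000, per the labels' protocols. The authors deposited raw read counts per gene for each library; CASAVA, HISAT2, featureCounts and GRCm38/mm10 are named in the submitters' processing notes, and versions, strand setting and handling of multiply mapped reads are not given in the sources used here. Identifiers were paired with GENCODE vM21 symbols (52083 of 55359 Ensembl identifiers), whose merged exons gave lengths.

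Counts were tested with edgeR 4.0.16 in R 4.3.3: TMM scaling, filterByExpr (minimum count 10, total 15), a quasi-likelihood fit of the 3 groups over all 9 libraries (6 residual degrees of freedom) and Benjamini-Hochberg adjustment over 17704 genes, threshold 0.05. CPM are counts per 1e6 of the TMM-scaled library, fold changes use a prior count of 0.125, and the pattern distance one of 2. SEs are the log2 fold change divided by the root of its F statistic. For the dual oxidase genes and Ptgs2, ratios of summed counts over summed library sizes have an exact binomial (Clopper-Pearson) interval. Promoter windows are RefSeq's for GRCm38.p6.

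The members, lists and markers were chosen with earlier results of these data known. Named were all 9 members, up to 3 genes with the lowest p per list and comparison (all where 5 or fewer passed) and the 3 nearest patterns; other genes named were chosen after their values were seen. Some listed genes are counted but not reported here by name. Alternatives were RLE scaling, TMM without mitochondrial and muscle genes, DESeq2 1.42.0, no filter, a replicate block and left-out libraries. With 3 libraries a group, small differences may be missed.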

Additional observations from a re-analysis of the deposited data

How the results depend on the processing

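Of 315 fold changes of the oxidase genes under the alternatives, 298 moved by less than the spread between replicates and 17 by more, and of 1380 for the listed genes that passed, 1273 kept their call and 107 lost it; none reversed a call. Scaling choices moved the median of all genes by at most 0.03 on the log2 scale. FMT-Con A over Con A was the comparison that moved. Without 1 library at a time, 664 to 4053 genes passed (2981 with all), 3 to 14 listed genes (10 with all) and 1 to 3 oxidase genes (3 with all). DESeq2 called 19 listed genes. Without FMT-Con A replicates 1 and 3, the muscle-rich libraries, 99 genes passed (3262 at an unadjusted p under 0.05), with 0 listed genes (16 unadjusted) and 0 oxidase genes (3 unadjusted), and 6957 passed in FMT-Con A over WT (10449 with all); these fits had fewer samples. In Con A over WT, 5 of the oxidase genes passed without WT replicate 2, which lost Nox4 and Cybb, and in FMT-Con A over WT 4 passed without WT replicate 1 or 2.

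The labels state no pairing of replicate numbers. Deviations of same-numbered libraries correlated at -0.05, 0.10 and 0.07 between Con A and WT. Between FMT-Con A and Con A they correlated at -0.22, 0.25 and 0.34, and between FMT-Con A and WT at 0.03, 0.07 and 0.02. Differently numbered libraries were not compared, so these values cannot decide whether the numbers pair samples. With the replicate block, 11093 genes passed in Con A over WT, 2663 in FMT-Con A over Con A and 10207 in FMT-Con A over WT; listed genes numbered 40, 11 and 41, and oxidase genes 7, 3 and 6, in the same order. Depth limits Duox1, Duoxa1 and every WT value of the dual oxidases, which rest on 1 to 3 reads a gene.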

Other observations

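Genes around the dual oxidase block were looked at after their values were seen. Of 17 annotated within 250 kb, 9 were tested. In Con A over WT, 3 of these 9 rose and 3 fell, where 32.5% and 30.9% of all tested genes did. In Con A over WT, Slc28a2, a nucleoside transporter gene, rose by 2.26 on the log2 scale (adjusted p = 0.000572), Gatm, which makes the precursor of creatine, by 0.74 (adjusted p = 0.00235) and Gm14085 by 1.16 (adjusted p = 0.0454). Sord, sorbitol dehydrogenase, fell by 2.52 (adjusted p = 2.3e-05) and Shf by 1.65 (adjusted p = 0.000161), and Eif3j1 fell by 0.39 (adjusted p = 0.0115). In FMT-Con A over Con A, B2m, the light chain of class I MHC, fell by 0.78 (adjusted p = 0.0181) and Gatm by 0.55 (adjusted p = 0.0409), while the other 7 did not pass. No tested neighbour had a log2 fold change above 2.26 in Con A over WT.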
